A study of Mus musculus with 2 samples.

Results

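The 8 S100 genes S100a8, S100a9, S100a4, S100a6, S100a10, S100a11, S100a1 and S100a13 were taken by symbol from the 32285 gene rows of a single-cell RNA sequencing table, in which the S100 family has 17 rows in all. The other 9 rows (S100a2, S100a3, S100a5, S100a7a, S100a14, S100a16, S100b, S100g and S100z) are given by their UMIs only. The study treated BALB/cAnNCrl mice bearing liver metastases of 4T1, a mouse mammary carcinoma line, with CBL0137, a curaxin that binds DNA. It describes hepatic arterial infusion as the route of vehicle and drug before single-cell sequencing. Cells of 2 pooled mice per group, aged 7 to 8 weeks, were collected 5 days after treatment, and all 3 groups carried the tumor. Hashtag antibodies told the groups apart, with A0301 on vehicle cells, A0305 on low dose cells and A0310 on high dose cells. The amounts behind the low and the high dose are not stated in the sources used here. The labels describe leukocytes from a density gradient, and the methods describe cells isolated with CD11b+ magnetic beads, yet T cell-like and B cell-like cells were found in both libraries. Each group was 1 pooled sample in each of 2 libraries, so no replicate exists, no test was run and every interval covers counting error only. Fewer cells of a type and less RNA per cell cannot be told apart in a sum of UMIs, and the number of cells is therefore given beside the levels.

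In the liver-labelled library 8435 of 9591 barcodes carried 1 hashtag, and the median barcode had 4673 UMIs (unique molecular identifiers, 1 per captured transcript). The spleen-labelled library held 4830 barcodes, of which 2988 were called for 1 hashtag and 1627 for none. In 1425 of these 1627, most hashtag UMIs were those of the high dose. Its group in this library held 865 cells, and cells of that dose may be among the barcodes left out. Tissue transcripts went against these labels. Clec4f, a Kupffer cell transcript, had 0 UMIs in the liver-labelled library (an upper limit of 0.0437 CPM, UMIs per 1000000 UMIs) and 3520 in the spleen-labelled library. Hepatocyte transcripts summed to 0.0874 and 89.7 CPM, and splenic transcripts to 145.6 and 37.6 CPM. By the names of the deposited matrices, too, the 2 tissues are swapped relative to the labels. Both libraries are called by their labels, and 15 barcodes were shared by them. Cells were clustered without any S100 gene among the variable features, and a cluster was called X-like from fixed marker genes. This left 3 clusters without a name in each library, with 745 and 342 cells. The clusters were therefore built from other genes of the same cells. S100 UMIs still entered the UMI totals used for scaling. S100 genes could also stand among the leading genes used in naming, as S100a8 and S100a9 did in cluster 10 of the spleen-labelled library.

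S100 proteins are small calcium-binding proteins of vertebrates that mostly work as dimers. S100a8 and S100a9 form the heterodimer calprotectin, which fills the cytosol of neutrophils, chelates zinc and manganese, and acts on Toll-like receptor 4 and the receptor for advanced glycation end products once released. In tumor-bearing mice they are also used as markers of myeloid-derived suppressor cells. S100a10, which has lost calcium binding, pairs with annexin A2, S100a11 binds annexin A1, S100a6 binds the calcyclin-binding protein, S100a4 binds non-muscle myosin IIA, S100a1 is best known from heart muscle, and S100a13 takes part in the release of fibroblast growth factor 1.

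All 8 genes lie on chromosome 3 in mm10 (GRCm38), the build of the labels, with positions from GENCODE release M21. S100a1 (chr3:90511034-90514392, minus strand), S100a13 (chr3:90514435-90524581), S100a4 (chr3:90603771-90606045), S100a6 (chr3:90612882-90624181), S100a8 (chr3:90668978-90670035) and S100a9 (chr3:90692632-90695721, minus strand) fill 184.7 kb. S100a11 (chr3:93520488-93526287) and S100a10 (chr3:93555080-93564643) follow after 2825 kb. S100a8 and S100a9 point toward each other, with 22.6 kb between them. The S100a4 gene overlaps another gene of its strand, Gm42674, and whether this affected its UMI count was not checked.

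S100a8 and S100a9 had the highest correlation across cell classes of all pairs of members (Pearson r 0.991, given again below), and their promoters are printed for that reason. The bases before the first GENCODE exon are shown 5′ to 3′ on the strand of the gene, from RefSeq windows on GRCm38.p6. In S100a8 (chr3:90668821-90668977, 157 bases) the capitals mark a match to GAGGAA, the core read by PU.1, on the reverse strand. In S100a9 (chr3:90695722-90695971, minus strand, 250 bases) they mark a match to TTGCNNAA, a motif of C/EBP factors.
S100a8 promoter: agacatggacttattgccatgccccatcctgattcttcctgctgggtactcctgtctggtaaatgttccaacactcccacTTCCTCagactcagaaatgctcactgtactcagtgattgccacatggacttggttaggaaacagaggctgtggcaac
S100a9 promoter: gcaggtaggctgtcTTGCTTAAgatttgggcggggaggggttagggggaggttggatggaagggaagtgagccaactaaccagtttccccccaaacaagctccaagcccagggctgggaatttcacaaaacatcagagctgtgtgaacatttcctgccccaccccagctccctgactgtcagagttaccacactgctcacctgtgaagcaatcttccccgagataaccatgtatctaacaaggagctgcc
A set of 3 motifs was searched on both strands in the 250 bases before the RefSeq start of 32851 promoters, and for S100a8 part of this window lies inside the first GENCODE exon. TTGCNNAA was found in 9.56% of promoters, with 1 match in S100a9 and none in the other 6 members of the table. GAGGAA was found in 23.3%, with 2 matches in S100a8 and 1 in S100a11. TATAAA, the TATA box, was found in 12.4%, with 1 match each in S100a8 and S100a4. S100a10 was not in the promoter table. A match describes letters only.

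S100a9 and S100a8 were the rows with the most UMIs of all genes in both libraries. S100a9 held 9.29% and S100a8 7.44% of all UMIs of assigned cells in the liver-labelled library, and in the spleen-labelled library they held 5.55% and 4.54%. S100a6 ranked 10 and 13 among all genes, with 5454 and 5145 CPM. S100a11 reached 1958 and 1231 CPM, S100a10 282 and 593 CPM, S100a4 146 and 657 CPM, S100a13 194 and 197 CPM, and S100a1 54.6 and 81.7 CPM. These are UMIs, which are not scaled to transcript length, and levels are compared below between cells rather than between genes. Of the other family rows, S100a16 had 0 UMIs in the liver-labelled library and 487 in the spleen-labelled library, 255 of them in the 4T1 tumor cell-like class and 186 in the endothelial-like class. S100a14 had 6 and 40 UMIs, 32 of the latter in the 4T1 tumor cell-like class. S100a7a had 107 and 27, S100a2 56 and 21, S100a3 34 and 16, S100a5 13 and 8, S100b 5 and 4, S100g 3 and 0, and S100z 0 and 0.

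**Figure D1:**
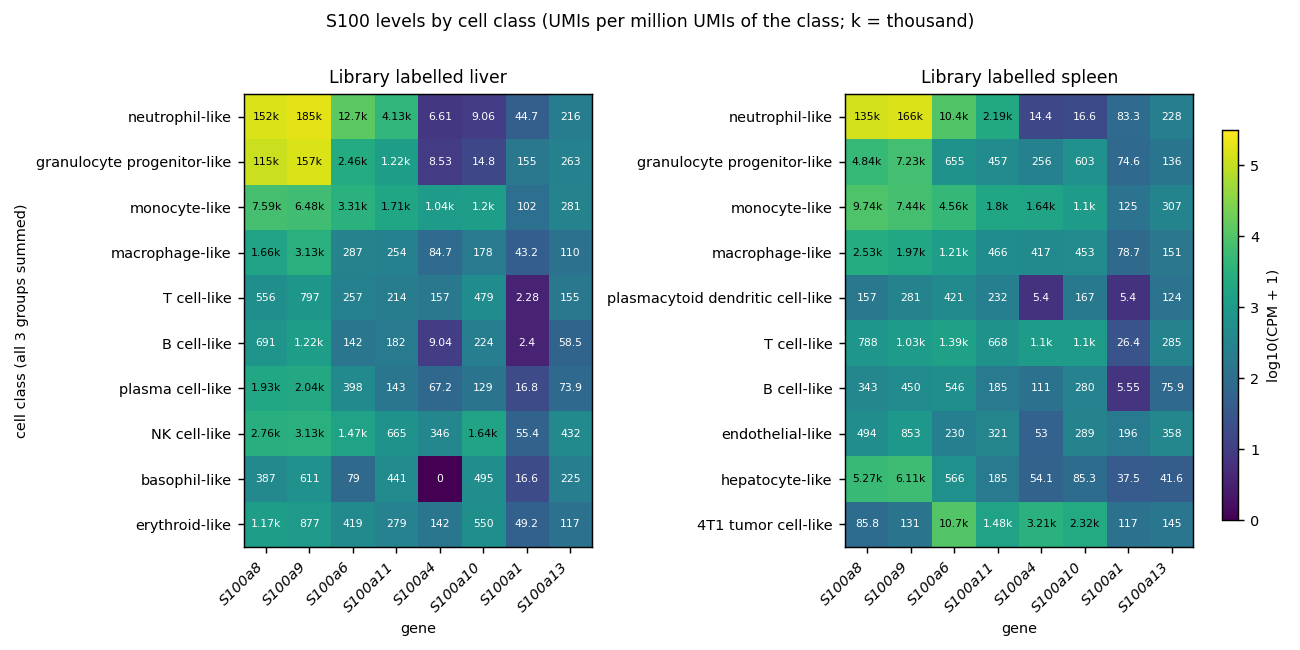
CPM of the 8 S100 genes (columns) in each named cell class (rows) of both libraries, all groups summed, colored by log10(CPM + 1) with the CPM printed in each cell. S100a8 and S100a9 peak in neutrophil-like cells of both libraries and in granulocyte progenitor-like cells of the liver-labelled library. S100a4 and S100a10 are at 6.61 and 9.06 CPM in neutrophil-like cells of the liver-labelled library.

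Neutrophil-like cells carried most of the S100a8 and S100a9 UMIs. In the 2848 neutrophil-like cells of the liver-labelled library S100a8 had 152027 CPM (95% counting interval 151875 to 152179) and S100a9 185262 CPM. In the 1061 neutrophil-like cells of the spleen-labelled library the levels were 135241 and 166215 CPM. The pair thus made up 33.7% of all UMIs of the class in the former and 30.1% in the latter. Single cells spread widely around these sums: in the liver-labelled library the share per cell was 3.06% at the 5th percentile, 25.8% at the median and 46.2% at the 95th percentile. Granulocyte progenitor-like cells differed between the libraries, with 115291 CPM of S100a8 in 314 cells of the liver-labelled library and 4835 CPM in 161 cells of the spleen-labelled library. Their leading genes differed too, with Elane, Fcnb and Prtn3 in the former and Ctsg, Mpo and Myb in the latter. The same name thus covers unlike clusters, and these levels do not compare like cells between the libraries. Cluster 7 of the spleen-labelled library, led by Camp, Cebpe and Fcnb, was similar to the former but was named neutrophil-like. It had 108271 CPM of S100a8.

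Next in order for S100a8 were monocyte-like cells, at 7594 CPM in the liver-labelled library and 9745 in the spleen-labelled library. The remaining classes of the liver-labelled library ran from 387 CPM in 24 basophil-like cells to 2762 in 157 NK cell-like cells. Those of the spleen-labelled library ran from 85.8 CPM in 59 4T1 tumor cell-like cells to 5270 in 163 hepatocyte-like cells. The upper ends rest on few cells: a single cell held 76.7% of the UMIs of S100a8 and S100a9 in NK cell-like cells and 76.8% in hepatocyte-like cells. Neutrophil-like cells held 75.2% of all S100a8 UMIs in the liver-labelled library, where granulocyte progenitor-like cells held another 23.3%, and 94.5% in the spleen-labelled library. These shares depend on the naming of clusters. Cluster 7 of the spleen-labelled library counted as neutrophil-like, and the similar cluster 8 of the liver-labelled library did not.

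S100a6 and S100a11 were also highest in neutrophil-like cells among leukocyte classes, but less exclusively. S100a6 had 12693 and 10378 CPM in neutrophil-like cells of the liver- and spleen-labelled libraries, against 3311 and 4562 in monocyte-like cells. It was at 257 CPM in T cell-like cells of the former and at 1391 in those of the latter, a class of unlike clusters in the 2 libraries. The 4T1 tumor cell-like class of the spleen-labelled library, 59 cells, had 10659 CPM of S100a6, a level close to that of neutrophil-like cells, and held 18.4% of the UMIs of the gene. S100a11 had 4132 and 2188 CPM in neutrophil-like cells, 1712 and 1801 in monocyte-like cells and 1477 in 4T1 tumor cell-like cells.

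S100a4 and S100a10 showed the opposite order. S100a4 had 6.61 CPM (167 UMIs in 2848 cells) in neutrophil-like cells of the liver-labelled library and 1038 CPM in monocyte-like cells. Its levels in the spleen-labelled library were 14.4 CPM in neutrophil-like, 1641 in monocyte-like, 1097 in T cell-like and 3206 in 4T1 tumor cell-like cells. S100a10 had 9.06 and 16.6 CPM in neutrophil-like cells of the liver- and spleen-labelled libraries, 1201 and 1096 in monocyte-like cells, 1642 in NK cell-like cells of the former and 2319 in 4T1 tumor cell-like cells of the latter. The 59 4T1 tumor cell-like cells held 43.4% of S100a4 UMIs and 34.8% of S100a10 UMIs of their library. By hashtag they were 5 vehicle, 13 low dose and 41 high dose cells, too few to compare doses.

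The few S100a4 and S100a10 UMIs of neutrophil-like cells sat in few cells. For the liver-labelled library, the 89 S100a4 UMIs of the vehicle came from 24 of 1396 cells, 1 of which held 24, and the 4 UMIs of the high dose came from 3 of 190 cells. Its 108 S100a10 UMIs of the vehicle came from 53 of 1396 cells. A single cell held 28 of the 43 S100a4 UMIs of the high dose in the spleen-labelled library.

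S100a1 and S100a13 were low everywhere. S100a1 was highest in granulocyte progenitor-like cells of the liver-labelled library (155 CPM) and in endothelial-like cells of the spleen-labelled library (196 CPM), and was at 2.28 and 2.4 CPM in T cell-like and B cell-like cells of the former. S100a13 spanned the narrowest range in fold of the 8 genes, from 58.5 CPM in B cell-like to 432 in NK cell-like cells of the liver-labelled library and from 41.6 in hepatocyte-like to 358 in endothelial-like cells of the spleen-labelled library.

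T cell-like cells were not uniform in these genes. Cluster 6 of the liver-labelled library (449 cells, with Ikzf2, Izumo1r, Maf and Tnfrsf4 among the leading genes) had 881 CPM of S100a4, 1189 of S100a6 and 1541 of S100a10. The other T cell-like clusters 0, 5 and 7 had 4.94, 9.85 and 0.722 CPM of S100a4, so nearly all of its UMIs in this class came from 1 cluster. That cluster made up 86 of 592 T cell-like cells after the vehicle, 142 of 860 after the low dose and 221 of 1019 after the high dose. Both T cell-like clusters of the spleen-labelled library had S100a4, at 1189 CPM in cluster 4 (Gzma and Ccl5 leading) and 835 in cluster 13 (Il7r and Lef1 leading). Cluster 4, with 200 cells, also raised 5 NK cell markers, and no cluster of this library was named NK cell-like. The name T cell-like thus covers unlike clusters, and its levels do not compare like cells between the libraries.

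Over 48 points (library by class by group, with at least 20 cells) and 3384 genes, the pattern most like S100a8 was that of S100a9 (Pearson r of log2 CPM 0.991), followed by Ifitm6 (0.966), Lcn2 (0.961), Wfdc21 (0.939) and Cd177 (0.935). S100a9 gave the list S100a8, Lcn2 (0.953), Ifitm6 (0.948), Cd177 (0.932) and Cstdc5 (0.924). For S100a6 it was S100a11 (0.908), Anxa1 (0.830), Prdx5 (0.824), Tspo (0.804) and Anxa2 (0.804), and for S100a4 it was Ahnak (0.844), S100a10 (0.843), Lgals1 (0.840), Crip1 (0.773) and Psmb10 (0.765). The points share libraries and depth, so these values describe likeness only.

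**Figure D2:**
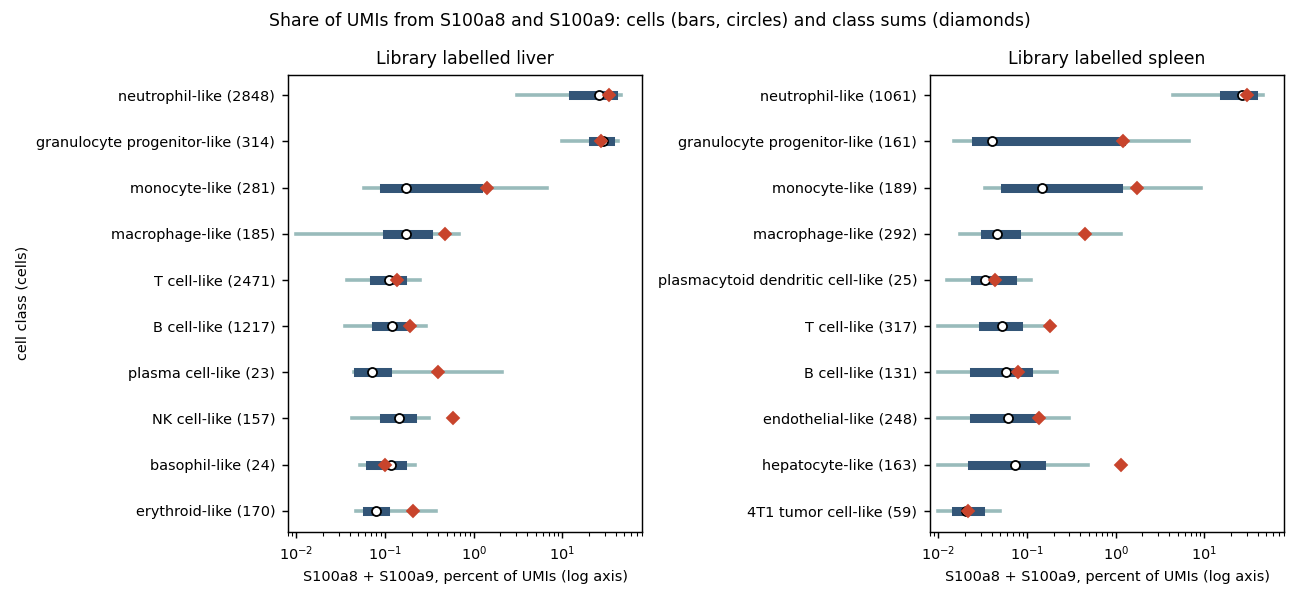
Percent of UMIs from S100a8 and S100a9 by cell class (log axis, cells in parentheses), with thin bars from the 5th to the 95th and thick bars from the 25th to the 75th percentile of single cells, circles at the median and diamonds at the class sum; values under 0.01 are drawn at 0.01. Class sums lie far right of the median cell in monocyte-like and hepatocyte-like cells.

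Among neutrophil-like cells the share of UMIs from S100a8 and S100a9 followed the clusters. In the liver-labelled library it was 18.5% in cluster 2 (Saa3 and Il1b leading, 964 cells), 22.9% in cluster 3 (Il1b and Csf3r leading, 804 cells), 37.4% in cluster 4 (Stfa3 and Stfa2 leading, 635 cells), 41.3% in cluster 10 (Prok2, Retnlg and Ly6g leading, 292 cells) and 41.0% in cluster 17 (Ltf, Camp and Ngp leading, 153 cells). In the spleen-labelled library it was 22.6% in cluster 0 (Il1b and G0s2 leading, 417 cells), 34.9% in cluster 3 (Stfa3 and Stfa2 leading, 219 cells), 26.4% in cluster 7 (Camp, Cebpe and Fcnb leading, 169 cells), 41.1% in cluster 10 (Ly6g and Ltf leading, 135 cells) and 23.4% in cluster 12 (Saa1 and Orm1 leading, 121 cells). Clusters with Il1b among the leading genes had the lower shares and clusters with Ly6g among the leading genes the highest in both libraries. Depth differed between these clusters too, from a median of 3306 UMIs per cell in cluster 2 to 22659 in cluster 17 of the liver-labelled library and from 2821 in cluster 0 to 19574 in cluster 7 of the spleen-labelled library. The shallowest cluster had the lowest share in both libraries, at 18.5% and 22.6%. The deepest had 41.0% against a highest share of 41.3% in the liver-labelled library, and 26.4% against 41.1% in the spleen-labelled library. The part of depth in the result was not tested. Cluster 14 of the spleen-labelled library (Cxcl3 and Hilpda leading, 73 cells, median 2211 UMIs) raised neutrophil markers but was left unnamed by the naming rule. Its share was 9.54%, and it is not among the neutrophil-like clusters above. By hashtag it held 32 vehicle, 38 low dose and 3 high dose cells.

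The other members followed different orders across the same clusters. Among neutrophil-like clusters of the spleen-labelled library S100a6 was lowest in cluster 7, led by Camp and Cebpe, at 1978 CPM. In the liver-labelled library it was lower in granulocyte progenitor-like cells, led by Elane, than in any neutrophil-like cluster, at 2460 CPM. It was highest in cluster 10 of the liver-labelled library (18213) and cluster 3 of the spleen-labelled library (18422). S100a11 was likewise lowest in these progenitor-like cells and in cluster 7, at 1224 and 797 CPM. Granulocyte progenitor-like cells of the spleen-labelled library, the unlike cluster led by Ctsg and Mpo, were lower still. They had 655 CPM of S100a6 and 457 of S100a11, and 74.6 of S100a1. S100a1 otherwise ran the other way, at 155 CPM in granulocyte progenitor-like cells of the liver-labelled library and 154 in cluster 7. It fell to 4.08 in cluster 3 of the liver-labelled library and 7.42 in cluster 0 of the spleen-labelled library, both with Il1b among the leading genes. The ratio of S100a8 to S100a9 UMIs was 0.821 and 0.814 over all neutrophil-like cells of the liver- and spleen-labelled libraries. It ran from 0.663 in cluster 2 to 0.873 in cluster 4 of the former. In the latter it ran from 0.695 in cluster 7 to 1.07 in cluster 12, which held 117 low dose cells, 2 vehicle and 2 high dose cells.

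The comparison of doses asks how these genes stood after CBL0137 in the neutrophil-like cells recovered. In the liver-labelled library S100a8 and S100a9 together made up 32.3% of UMIs after the vehicle (1396 cells), 34.8% after the low dose (1262 cells) and 35.1% after the high dose (190 cells). The change from the vehicle was 2.50 percentage points at the low dose (95% counting interval 2.46 to 2.54) and 2.86 at the high dose (2.81 to 2.92). In the spleen-labelled library the shares were 29.99% (327 cells), 31.3% (582 cells) and 28.4% (152 cells), a change of 1.33 points (1.26 to 1.40) at the low and -1.604 (-1.68 to -1.52) at the high dose. The high dose sum thus differed in sign between the libraries. The median cell had 21.2%, 28.8% and 35.1% after vehicle, low and high dose in the liver-labelled library. In the spleen-labelled library it had 24.9%, 26.3% and 29.7%, so the high dose was above the vehicle in both. Depth differed as well, with median UMIs per cell of 4249, 5554 and 18462 in the former and 5454, 4570 and 14327.5 in the latter. The part of depth in these shares was not tested. The changes from the vehicle depended on the processing. The high dose change of the liver-labelled library was 0.192 points with granulocyte progenitor-like cells added, 0.299 with marker UMIs in place of clusters, 4.30 at a clustering resolution of 0.4 and 11.2 as a mean over cells. That of the spleen-labelled library turned sign with hashtags called by MULTIseqDemux (0.129) or by the dominant tag (0.4001), without cluster 7 (0.220), as a mean over cells (3.32) and with granulocyte progenitor-like cells (5.30), and it was -0.778 at resolution 0.4 and -0.841 with S100 genes among the variable features. The low dose change was 1.49 with granulocyte progenitor-like cells and 5.12 as a mean over cells in the former, and 0.652 with granulocyte progenitor-like cells, 0.160 without cluster 7 and -0.0973 with marker UMIs in the latter.

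Within the clusters compared, both libraries gave 1 sign per dose. At the high dose clusters 2, 3 and 17 of the liver-labelled library had 9, 3 and 6 cells and were left out. They held 649, 351 and 71 of its 1396 vehicle neutrophil-like cells. Clusters 0 and 12 of the spleen-labelled library, with 11 and 2 high dose cells and 153 and 2 of 327 vehicle cells, were also left out. The high dose share was below that of the vehicle in all 5 neutrophil-like clusters with at least 20 cells of both groups. It was 34.9% against 38.1% in cluster 4 (a change of -3.19 points, -3.26 to -3.12) and 38.2% against 41.5% in cluster 10 of the liver-labelled library. The spleen-labelled library gave 32.2% against 35.6% in cluster 3, 23.3% against 27.2% in cluster 7 and 35.5% against 41.7% in cluster 10 (-6.14 points, -6.36 to -5.91). Granulocyte progenitor-like cells of the liver-labelled library had 24.5% against 28.6%, a change of -4.11 points. S100a8 and S100a9 were each lower in all 5 clusters, by log2 ratios from -0.28 to -0.08 and from -0.25 to -0.13. At the low dose the share was above that of the vehicle in all 9 clusters compared, by 0.277 to 3.32 points. Granulocyte progenitor-like cells had the opposite sign there, with 27.1% against 28.6% in the liver-labelled library (-1.52 points) and 0.720% against 1.53% in the spleen-labelled library (-0.815 points). The clusters of a library come from the same pooled mice and share their vehicle cells, so 5 and 9 clusters are no replicates.

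The makeup of the class differed at the same time. Cluster 4 held 78.9% of high dose but 17.4% of vehicle neutrophil-like cells in the liver-labelled library, while cluster 2 held 46.5% of the vehicle. When the clusters of each dose were weighted by the vehicle's UMIs, the share came to 30.03% at the high dose against 32.3% for the vehicle in the liver-labelled library, and to 27.8% against 29.99% in the spleen-labelled library. The weighted low dose values were 33.2% and 31.7%. These weights rest on clusters with as few as 3 high dose cells in the former and 2 in the latter.

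**Figure D3:**
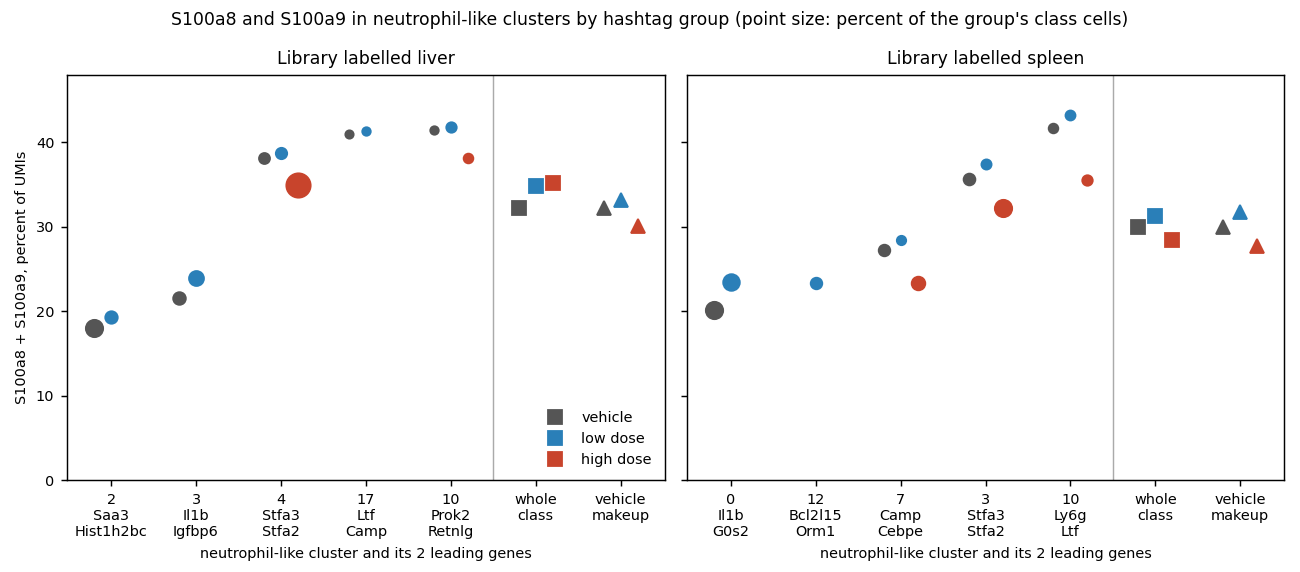
Percent of UMIs from S100a8 and S100a9 in each neutrophil-like cluster (circles, larger for clusters with more of the group's cells), in the whole class (squares) and with clusters weighted as in the vehicle (triangles), for vehicle (gray), low dose (blue) and high dose (red). In the liver-labelled library the high dose square lies above the vehicle square at 35.1% against 32.3%, and its triangle lies below at 30.03%.

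By gene, a member was called when it differed at least 1.5-fold with at least 200 UMIs over both groups. In neutrophil-like cells of the liver-labelled library none of 7 tested members was called at the low dose, where 3.14% of 5157 genes were, and none of 6 at the high dose, where 27.5% of 4255 genes were, 25.6% being lower and 1.83% higher. For the spleen-labelled library none of 6 was called at the high dose, where 6.46% of genes were, and 1 of 6 at the low dose, where 9.7% were. The median log2 ratio of the tested members was 0.10 and 0.26 at the low and high dose in the liver-labelled library, against -0.08 and -0.29 over all genes tested. The spleen-labelled library gave 0.07 and 0.06 against -0.02 and 0.04.

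S100a8 had 143545 CPM after the vehicle, 155929 after the low and 166253 after the high dose in the liver-labelled library, and 131105, 142252 and 128629 in the spleen-labelled library. S100a9 had 179184, 191785 and 185117 CPM in the former and 168768, 170955 and 155204 in the latter. The log2 ratio to the vehicle stayed between -0.12 and 0.21 for both genes. The ratio of S100a8 to S100a9 was 0.801 after the vehicle, 0.813 after the low and 0.898 after the high dose in the liver-labelled library, and 0.777, 0.832 and 0.829 in the spleen-labelled library.

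S100a6 was the member with the widest difference among the abundant ones. It had 11484, 12493 and 16818 CPM in the liver-labelled library, a log2 ratio of 0.55 (0.54 to 0.56) at the high dose, and 9464, 10787 and 10816 in the spleen-labelled library. When S100a8 and S100a9 were left out of the UMI total, the ratio at the high dose in the liver-labelled library was 0.61 and S100a6 was called higher, where 24.3% of genes were called. Within clusters the high dose was not of 1 sign: log2 ratios were 0.28 and -0.08 in clusters 4 and 10 of the liver-labelled library and 0.41, -0.40 and -0.77 in clusters 3, 7 and 10 of the spleen-labelled library.

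S100a11 had 3800, 4430 and 4284 CPM in the liver-labelled library and 1926, 2543 and 1916 in the spleen-labelled library. At the low dose it was above the vehicle in all 9 clusters, by log2 ratios from 0.02 to 0.23. S100a1 had 48.5, 35.2 and 59.7 CPM in the liver-labelled library and 97.1, 59.6 and 106 in the spleen-labelled library. It was the 1 member called, lower at the low dose in the spleen-labelled library with 229 UMIs against 274 and a log2 ratio of -0.70 (-0.96 to -0.44). Without cluster 7 the ratio was -0.55 and short of 1.5-fold. The low dose was below the vehicle in all 9 clusters, although the counting interval reached above 0 in clusters with few S100a1 UMIs. S100a13 had 204, 211 and 269 CPM in the former and 234, 202 and 264 in the latter.

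S100a4 and S100a10 had too few UMIs for a call in most comparisons. S100a4 had 89, 74 and 4 UMIs in the liver-labelled library and 19, 67 and 43 in the spleen-labelled library, in the order vehicle, low and high dose. S100a10 had 108, 97 and 24 UMIs, and 34, 64 and 51. These UMIs came from few cells, as described above.

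**Figure D4:**
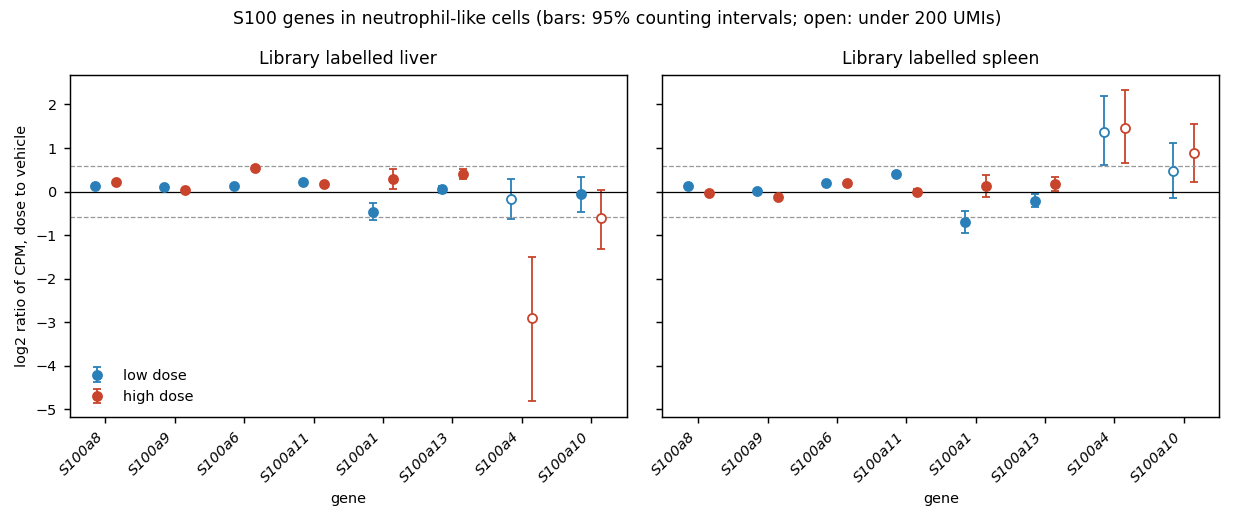
Log2 ratio of CPM in neutrophil-like cells, low dose (blue) or high dose (red) to vehicle, for each S100 gene in both libraries, with 95% counting intervals, open circles under 200 UMIs and dashed lines at 1.5-fold. S100a6 at 0.55 is the highest filled circle of the liver-labelled library, and S100a1 at -0.70 the only filled circle past a dashed line.

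Genes that act with the S100 proteins were taken from lists of receptors, binding partners and transcription factors. Their counts stand beside the 3.14% and 27.5% of all genes called at the low and high dose in neutrophil-like cells of the liver-labelled library, and 9.7% and 6.46% in those of the spleen-labelled library. Of the receptors, Cd14, the coreceptor of Toll-like receptor 4, was called higher at the low dose (387 to 614 CPM, log2 0.67) and lower at the high dose (387 to 208 CPM, log2 -0.89) in neutrophil-like cells of the spleen-labelled library. None of 4 tested receptors was called at either dose in the liver-labelled library, and at the high dose the log2 ratios were -0.50 for Tlr4, -0.45 for Cd14 and -0.55 for Bsg, which encodes an S100a9 receptor, where the median of all genes was -0.29. Of 6 binding partners in the liver-labelled library, none was called at the low dose. Ahnak, a large scaffold that binds S100a10 with annexin A2, was called lower at the high dose. It had 8 UMIs in 190 high dose cells and 230 in 1396 vehicle cells, and how many cells carried them was not counted. Anxa2, Anxa1, Anxa11 and Myh9 had log2 ratios of 0.31, 0.17, 0.32 and 0.33 at the high dose of this library. None of the partners tested in the spleen-labelled library was called. Of 4 transcription factors, Cebpd was called lower at the high dose in the liver-labelled library (538 to 290 CPM, log2 -0.89) and Cebpb in the spleen-labelled library (1867 to 1219 CPM, log2 -0.61). Spi1, which encodes PU.1, had log2 ratios of -0.05 and 0.09 at the high dose.

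Outside neutrophil-like cells, T cell-like and B cell-like cells served as background for transcripts of neutrophils. T cell-like cells of the liver-labelled library (2471 cells) had 556 CPM of S100a8 and 797 of S100a9, which is 0.366% and 0.430% of the neutrophil-like level. The neutrophil transcripts Retnlg, Camp, Ngp, Ltf, Lcn2, Wfdc21, Ifitm6 and Mmp8 stood at 0.262% to 0.478% of their neutrophil-like levels in the same cells, so S100a8 and S100a9 lay inside their range. B cell-like cells gave 0.455% for S100a8 and 0.660% for S100a9, against 0.303% to 0.614% for the same 8 transcripts. In the spleen-labelled library T cell-like cells gave 0.583% and 0.622%, within a wider range of 0.0887% to 2.18%. A total of 1760 S100a8 and 2308 S100a9 UMIs lay behind these values, 2128 of them in a single low dose cell, and the S100a8 value was 0.274% with MULTIseqDemux and 0.135% with marker UMIs.

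In monocyte-like cells the neutrophil transcripts did not share a level. Those of the liver-labelled library had 5.00% of the neutrophil-like S100a8 level and 3.50% of that of S100a9. Camp, Ngp and Ltf lay lower, between 0.227% and 0.293%, as did Retnlg at 1.51%, while Lcn2 (6.58%), Ifitm6 (7.49%), Wfdc21 (15.5%) and Mmp8 (33.1%) lay higher. For the spleen-labelled library the values were 7.21% for S100a8 and 4.48% for S100a9, against 0.135% to 0.163% for Camp, Ngp and Ltf, 2.56% for Retnlg, 6.18% for Lcn2 and 11.05% to 48.8% for Ifitm6, Wfdc21 and Mmp8. S100a8 also exceeded S100a9 there, with 1.17 and 1.31 S100a8 UMIs per S100a9 UMI, where T cell-like cells had 0.697 and 0.763. Part of the monocyte-like UMIs came from few cells: in the liver-labelled library the 22 of 281 cells with at least 5% of UMIs from the pair held 55.5% of its UMIs, and without them the pair made up 0.684% of UMIs in place of 1.41%. Of the spleen-labelled library, 22 of 189 cells passed that limit and held 68.6%.

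**Figure D5:**
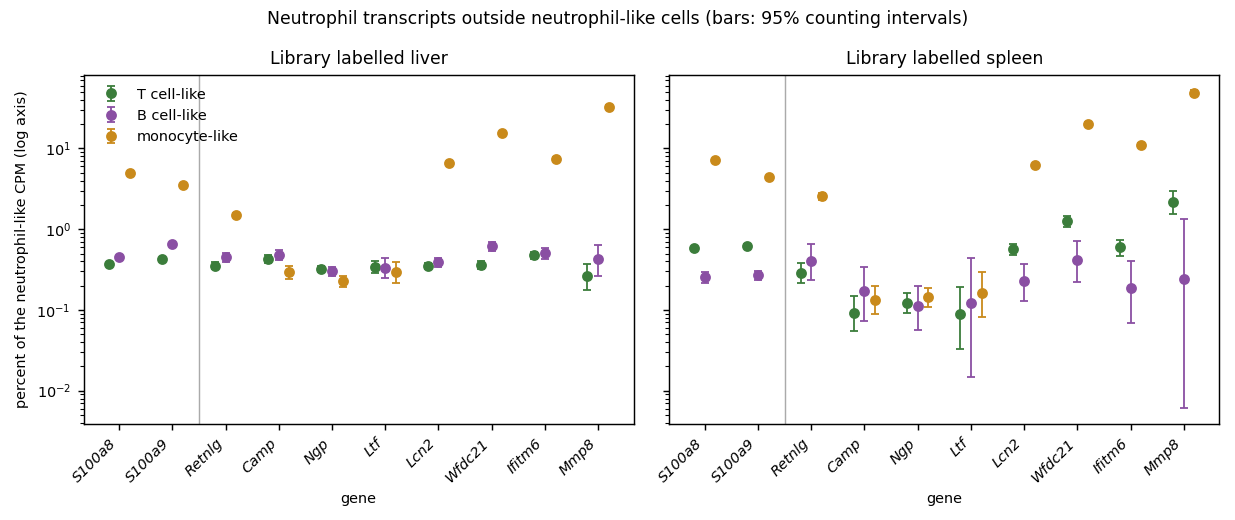
Level of S100a8, S100a9 and 8 other neutrophil transcripts in T cell-like (green), B cell-like (purple) and monocyte-like (orange) cells as a percent of the neutrophil-like CPM (log axis), with 95% counting intervals. In the liver-labelled library all 10 genes lie between 0.262% and 0.478% in T cell-like cells, while in monocyte-like cells they run from 0.227% for Ngp to 33.1% for Mmp8, with S100a8 at 5.00%.

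At 500 UMIs per cell, to which cells were thinned, S100a8 was seen in 98.7% of neutrophil-like, 53.7% of monocyte-like, 21.4% of T cell-like and 23.3% of B cell-like cells of the liver-labelled library. Without thinning the shares were 99.8%, 100%, 88.8% and 83.9%, at median depths of 5299 UMIs in neutrophil-like and 4820 in T cell-like cells. Thinned shares of the spleen-labelled library were 99.4%, 52.9%, 14.8% and 9.92%. S100a4, by contrast, was seen in 0.246% of thinned neutrophil-like, 3.56% of T cell-like and 40.6% of monocyte-like cells of the liver-labelled library, and in 0.848%, 33.1% and 48.7% of those of the spleen-labelled library. S100a6 was seen in 84.1% and 80.5% of thinned neutrophil-like cells.

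Sums of S100a8 and S100a9 outside neutrophil-like cells differed between groups, and in several classes much of the difference lay in few cells. In T cell-like cells of the liver-labelled library the pair made up 0.112% of UMIs in the median vehicle cell, 0.112% in the median low dose and 0.107% in the median high dose cell, and no member was called at either dose, where 0.744% and 1.04% of genes were. In T cell-like cells of the spleen-labelled library S100a8 and S100a9 were both called higher at the low dose, where 8.11% of genes were called, and both lower at the high dose, where 18.1% were. There 1 of 104 low dose cells held 2128 of the 3256 UMIs of the pair, and without it the low dose share was 0.180% in place of 0.510%. In NK cell-like cells of the liver-labelled library 1 of 34 vehicle cells held 93.8% of the pair's UMIs, so that the vehicle share was 2.11% with and 0.153% without it, against 0.151% at the low and 0.130% at the high dose. S100a8, S100a9, S100a6 and S100a11 were called lower there at the low dose and S100a8, S100a9 and S100a6 at the high dose, where 4.63% and 5.82% of genes were called.

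In monocyte-like cells of the liver-labelled library S100a8 and S100a9 were called higher at the high dose, with 3.14% of UMIs against 1.08% after the vehicle, where 10.5% of genes were called. At least 5% of UMIs came from the pair in 6 of 26 high dose cells and 10 of 158 vehicle cells. Without them the shares of the class were 0.714% and 0.615%. They were picked by the share being compared, so leaving them out cannot show how far the difference rests on few cells. The median high dose cell had 0.551%, where the median vehicle cell had 0.140%. The 75th percentile of high dose cells was 3.48%, and that of vehicle cells was 0.876%. In macrophage-like cells of the spleen-labelled library the pair made up 0.0562% of UMIs after the vehicle (57 cells), 0.512% after the low dose (112 cells) and 0.542% after the high dose (123 cells), and both genes were called higher at both doses, where 8.29% and 9.41% of genes were called. The median cell there had 0.0459%, 0.0506% and 0.0421% after the vehicle, the low and the high dose. Without 2 low dose and 3 high dose cells the class shares were 0.258% and 0.146%. Macrophage-like cells of the liver-labelled library went the other way at the high dose, with 0.476% after the vehicle (63 cells), 0.678% after the low dose (58 cells) and 0.160% after the high dose (64 cells). S100a8 was called higher there at the low dose, and both genes lower at the high dose, where 8.4% and 17.6% of genes were called. Without 1 vehicle and 1 low dose cell the shares were 0.158% and 0.347%. The median cell of this class had 0.187%, 0.133% and 0.182% after the vehicle, the low and the high dose.

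In granulocyte progenitor-like cells of the spleen-labelled library both genes were called lower at the low dose, where 4.83% of genes were called, and 12 of 67 vehicle and 4 of 80 low dose cells held 77.6% and 49.4% of the pair's UMIs. In B cell-like cells of the liver-labelled library S100a9 was called higher at the low dose, with 1089 CPM after the vehicle and 1784 after the low dose, and 1 of 401 low dose cells held 41.3% of the pair's UMIs. In hepatocyte-like cells of the spleen-labelled library both genes were called lower at the low dose and, with S100a6, higher at the high dose, where 43.5% of 23 and 37.7% of 53 genes were called, and 3 of 163 cells held 91.9% of the pair's UMIs. S100a9 was also called lower at the high dose in endothelial-like cells of that library, where 16.8% of genes were called.

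The other members were also called in some classes. S100a4 had 303 CPM after the vehicle and 620 after the low dose in macrophage-like cells of the spleen-labelled library, a log2 ratio of 1.04, and S100a6 987 and 1515 CPM, a log2 ratio of 0.62, where 8.29% of genes were called. At the high dose these genes had 323 and 1085 CPM there, and neither was called. In B cell-like cells of the liver-labelled library S100a10 had 292, 190 and 177 CPM after the vehicle, the low and the high dose and was called lower at both doses, where 4.08% and 3.39% of genes were called. The S100a10 UMIs were spread over many cells, with a UMI in 308 of 466 cells after the vehicle, 175 of 401 after the low dose and 165 of 350 after the high dose. The makeup of the class differed too. Cluster 18, with 1 vehicle and 149 low dose cells, had 83.2 CPM of S100a10. Cluster 19, with 46 vehicle cells and 1 low dose cell, had 391 CPM, and cluster 1, the largest, had 235. The part of this makeup in the difference was not tested. S100a6 was also called lower at the high dose in B cell-like cells of the liver-labelled library, at 105 CPM where the vehicle had 168. A UMI of it was seen in 92 of 466 vehicle and 77 of 350 high dose cells. The largest cell held 62 of 342 vehicle UMIs and 48 of 168 high dose UMIs. S100a6 was called lower at both doses in B cell-like cells of the spleen-labelled library, where 4.38% and 7.81% of genes were called, but 4 of 31 vehicle cells held all of its 147 vehicle UMIs. In erythroid-like cells of the liver-labelled library S100a4 (90.8 to 245 CPM) and S100a10 (429 to 831 CPM) were called higher at the low dose, where 2.22% of genes were called, and neither was called at the high dose (118 and 472 CPM). At the high dose S100a8 (708 to 1686 CPM) and S100a6 (249.8 to 544 CPM) were called higher there and S100a9 (1137 to 739.8 CPM) and S100a1 (73.1 to 40.5 CPM) lower, where 6.78% of genes were called, and 1 of 79 high dose cells held 53.7% of the UMIs of S100a8 and S100a9.

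S100a4 in T cell-like cells had 139 CPM after the vehicle, 113 after the low and 201 after the high dose in the liver-labelled library, and 1435, 1204 and 991 in the spleen-labelled library. The log2 ratio of the high dose to the vehicle was 0.53 in the former and -0.53 in the latter, neither of them called. In the spleen-labelled library a single cell of 44 held 104 of the 325 vehicle UMIs, and the largest high dose cell held 62 of 1357. In the liver-labelled library the largest cell held 60 of 415 vehicle UMIs and 90 of 1112 high dose UMIs.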

How the data were processed

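The deposited values are raw UMI counts (filtered matrices of genes and hashtags by barcode), which the authors made with Cell Ranger (5.0.0 in the matrix header, 6.0.0 in the labels) on mm10, with neither normalization nor cell type names. Seurat 5.3.0 (R 4.3.3) called hashtags with HTODemux (quantile 0.99), and only barcodes of 1 hashtag entered the groups. SCTransform (sctransform 0.4.2), 30 principal components and clustering on shared nearest neighbors (resolution 0.8) were run per library, with 18 rows whose symbols start with S100 kept out of the variable features. The name X-like needed 3 or more fixed markers that were raised by 1.0 or more on the log2 scale (10 CPM added) against all other cells and seen in 20% or more of the cluster, and no more markers of another class among its leading 10 genes. By this rule cluster 7 of the spleen-labelled library was neutrophil-like and the similar cluster 8 of the liver-labelled library was granulocyte progenitor-like. A cluster without a marker among its leading genes also stayed unnamed when its median depth was under 1/3 of that of all clustered cells. In the liver-labelled library this left out cluster 9 (309 cells, median 802 UMIs) and cluster 12 (226 cells, median 870 UMIs). They raised B cell and T cell markers and are not in the B cell-like and T cell-like background. Mitochondrial UMIs were not filtered and reached 98.9% and 99.0% of a barcode. Scrublet (scanpy 1.11.5) marked 248 barcodes (2.59%) of the liver-labelled and 1 of the spleen-labelled library as doublets, and these were removed in an alternative only.

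UMIs were summed per class and group, divided by all gene UMIs of those cells and given as CPM, with exact Poisson intervals, exact conditional binomial intervals for ratios and Clopper-Pearson intervals for shares, all at 95%. A count of 0 was given a limit of 3 counts. The work used Python 3.11.15 with numpy 2.4.6, pandas 2.3.3 and scipy 1.17.1, and the ratios were tested on simulated data. The genes named are the 8 members, genes of 5 other lists (other S100 rows, receptors, binding partners, transcription factors and neutrophil transcripts) and, for S100a8, S100a9, S100a4 and S100a6, the 5 genes most alike among those with at least 1000 UMIs in each library. The T cell-like clusters and the single cells singled out by their S100 UMIs were chosen after their values were seen. The members and lists were chosen with earlier results of these data known. As alternatives, hashtags were called by MULTIseqDemux or by the dominant tag (10 UMIs or more and 3 times the next one), cells were filtered to 200 genes or more and less than 10% mitochondrial UMIs, resolutions of 0.4 and 1.6 were used, S100 genes were put back among the variable features, marker UMIs per cell replaced the clusters, granulocyte progenitor-like cells were added, cells were averaged, S100a8 and S100a9 were taken out of the UMI total, and cells were thinned to 1000 UMIs or not at all. Leaving out cluster 7, adding cluster 14 and weighting clusters as in the vehicle were chosen after seeing the data.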

Additional observations from a re-analysis of the deposited data

Results flagged for a closer look

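The sign of the high dose difference for both calprotectin genes was not the same in the 2 libraries. In neutrophil-like cells the log2 ratio of the high dose to the vehicle was 0.21 for S100a8 and 0.0470 for S100a9 in the liver-labelled library, and -0.0275 and -0.12 in the spleen-labelled library. Each group was 1 pooled sample per library, and the difference between libraries was not tested. In the spleen-labelled library S100a8 kept its sign in 6 of 13 alternatives, which reached a log2 ratio of 0.40, and S100a9 in 11 of 13. In the liver-labelled library S100a8 kept it in 11 of 11 and S100a9 in 9 of 11. Within neutrophil-like clusters both genes were lower at the high dose in all 5 compared, 2 of the liver-labelled and 3 of the spleen-labelled library.

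Barcodes outside the hashtag groups also carried S100a8 and S100a9, above the limit that a count of 0 allows. The pair made up 3.34% of UMIs in 540 barcodes without a hashtag of the liver-labelled library and 2.49% in 1627 of the spleen-labelled library, most of whose hashtag UMIs were those of the high dose in 1425. In barcodes with more than 1 hashtag it made up 17.2% (616 barcodes) and 14.5% (215 barcodes).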

How the results depend on the processing

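No paired analysis was possible because each group was 1 pooled sample per library. The change of the S100a8 and S100a9 share at the high dose in the liver-labelled library (2.86 points) was 2.66 with MULTIseqDemux, 2.73 with the dominant hashtag, 2.51 with the filter on cells, 4.30 and 2.52 at resolutions of 0.4 and 1.6, 2.56 with S100 genes among the variable features, 0.299 with marker UMIs in place of clusters, 0.192 with granulocyte progenitor-like cells and 11.2 as a mean over cells. It was -2.24, of opposite sign, when clusters were weighted as in the vehicle. In the spleen-labelled library (-1.604) it was -1.84 with the filter, -0.778 and -1.43 at the 2 resolutions, -0.841 with S100 genes, -1.69 with marker UMIs, -1.11 with cluster 14 and -2.23 weighted. There it took the opposite sign with MULTIseqDemux (0.129), the dominant hashtag (0.4001), granulocyte progenitor-like cells (5.30), a mean over cells (3.32) and without cluster 7 (0.220). At the low dose the liver-labelled library (2.50) gave 2.39 with MULTIseqDemux, 2.59 with the dominant hashtag, 2.32 with the filter, 2.94 and 2.34 at the 2 resolutions, 2.37 with S100 genes, 2.39 with marker UMIs, 2.64 without Scrublet calls, 1.49 with granulocyte progenitor-like cells, 5.12 as a mean over cells and 0.891 weighted. The spleen-labelled library (1.33) gave 1.76 with MULTIseqDemux, 1.85 with the dominant hashtag, 1.64 with the filter, 1.58 at resolution 0.4, 1.71 with S100 genes, 0.652 with granulocyte progenitor-like cells, 1.596 as a mean over cells, 0.160 without cluster 7 and 1.70 weighted, and -0.0973, of opposite sign, with marker UMIs.

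Members past 1.5-fold at the high dose in the liver-labelled library (0) were 1 with the dominant hashtag, at resolution 0.4 and without S100a8 and S100a9 in the total, and 4 as a mean over cells. For the spleen-labelled library (0) they were 1 with the dominant hashtag and as a mean over cells and 3 with granulocyte progenitor-like cells. At the low dose in the liver-labelled library (0) they were 2 with the dominant hashtag and 1 with marker UMIs or granulocyte progenitor-like cells, and in the spleen-labelled library the count was 1 in the 11 alternatives in which it was taken. S100a1, the member called there, was short of 1.5-fold without cluster 7 (-0.55), for which no count was taken. Of 384 log2 ratios of members under the alternatives, 350 had the sign of the value reported. In 217 the ratio lay within the counting interval of that value, and in 167 outside it. Of the values reported only S100a1 at the low dose in the spleen-labelled library was called, and it kept its sign in 13 of 13 alternatives. The S100a8 level of T cell-like cells in the liver-labelled library (0.366% of the neutrophil-like level) was 0.377% and 0.357% at the 2 resolutions, 0.351% with S100 genes, 0.507% with marker UMIs, 0.317% without Scrublet calls and 0.519% as a mean over cells. In the spleen-labelled library (0.583%) it was 0.274% with MULTIseqDemux, 0.627% with the filter, 0.834% at resolution 1.6, 0.135% with marker UMIs and 0.497% as a mean over cells. The share of T cell-like cells with a UMI of S100a8, 21.4% and 14.8% at 500 UMIs, was 39.2% and 23.4% at 1000 UMIs and 88.8% and 69.1% without thinning. The causes were not tested, other than depth for the last. With 1 pooled sample per group, differences between mice could not be measured, and clusters with few high dose cells limit every within-cluster value.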
